A study of Mus musculus with 6 samples.

Results

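The 43 genes described here encode the enzymes that make and use glutathione, the transsulfuration pathway that supplies its cysteine, and the peroxiredoxin, thioredoxin, superoxide and quinone enzymes that work beside them. They were taken by name, as the array probes that carry these gene symbols, with 1 probe per gene, the brightest over the 6 arrays. All 43 had a probe, and 38 gave a signal clear of background on 3 or more arrays and could be tested, among 22133 genes tested on the whole array.

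RNA came from G1E-ER-GATA-1 cells, a line of mouse erythroid progenitors that has no GATA-1 of its own and carries a fusion of GATA-1 to the hormone-binding domain of the oestrogen receptor. The 3 control samples received a non-targeting siRNA and the 3 knockdown samples an siRNA against Mi2β, the chromatin-remodelling ATPase encoded by Chd4, in each case by nucleofection at 0 h and at 24 h. Both groups received β-estradiol at 24 h, which activates the fusion protein, and both were collected at 48 h, so the comparison addresses how expression in cells with active GATA-1 depends on Mi2β. Each sample was hybridised to its own 1-colour array. The model is 1 cell line with a partial knockdown, and the labels do not say whether the 3 samples of a group were separate cultures, so the p-values reflect only how these samples vary among themselves, and that variation may be technical.

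Glutathione is a tripeptide of glutamate, cysteine and glycine, and cysteine is usually its limiting part. Cells take up cystine or make cysteine from methionine through cystathionine, and glutathione then reduces peroxides, is joined to reactive compounds by transferases, and is restored with NADPH. Red cell precursors carry iron, haem and oxygen, and mature red cells depend on glutathione, peroxiredoxins and catalase to remove peroxides.

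Chd4 checked the labels. It stood at 5.93, 6.00 and 5.75 on the control arrays and at 4.62, 4.60 and 4.54 on the knockdown arrays, in log2 signal relative to the array's 75th percentile, the scale of all levels given here. The change, knockdown minus control, was -1.31 with an SE of 0.10 (2.48-fold lower, adjusted p 0.00161). A gene is said to have risen or fallen where limma's p, adjusted by Benjamini-Hochberg over all genes tested, was under 0.05.

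The values rest on 60-base array probes. Those of 3 genes past the threshold, from the supply of cysteine, the end of glutathione synthesis and its use, are shown to place the measurement. The probes for Cth (chr3:157560183-157560242, minus strand, mm9) and Mgst2 (chr3:51486449-51486508, plus strand, mm9) lie in 1 stretch of genome, while that for Gss (chr2:155389432-155390531, minus strand, mm9) covers 60 bases spread over a longer genomic span. No letter is marked in them.
Cth: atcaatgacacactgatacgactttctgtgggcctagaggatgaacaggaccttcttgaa
Gss: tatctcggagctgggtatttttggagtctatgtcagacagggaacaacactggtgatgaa
Mgst2: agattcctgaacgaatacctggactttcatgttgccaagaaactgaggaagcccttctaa

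Many genes of these pathways are known targets of NRF2, which binds the antioxidant response element. Its core was searched as TGACNNNGC on both strands in RefSeq promoters of GRCm38.p6, from 250 bases before to 50 bases after a start site, beside AGATAA, letters of a GATA site. Of the 43 genes 36 had a promoter there, with 48 promoters between them. TGACNNNGC stood in 11 of these promoters, against 12.4% of all 32851 promoters. By gene, it stood in 9 of the 36 (Gclm, Ggt1, Gstm5, Mgst1, Msrb2, Prdx1, Sod1, Srxn1 and Txnrd1), against 14.0% of all 27025 genes. AGATAA stood in 1 of the promoters, of Ggt1, against 11.2% of all promoters and 12.7% of all genes. Among the 9 genes that rose or fell and had a promoter entry, only Prdx1, which rose, held TGACNNNGC, beside 14.0% of all genes. The 250 bases before the Prdx1 start site (chr4:116685349-116685598, plus strand) are shown with the match in capitals, 133 bases before the start on the minus strand. Nqo1, a textbook NRF2 target that fell, is shown for comparison (chr8:107403206-107403455, minus strand): these letters are not in this window.
Prdx1: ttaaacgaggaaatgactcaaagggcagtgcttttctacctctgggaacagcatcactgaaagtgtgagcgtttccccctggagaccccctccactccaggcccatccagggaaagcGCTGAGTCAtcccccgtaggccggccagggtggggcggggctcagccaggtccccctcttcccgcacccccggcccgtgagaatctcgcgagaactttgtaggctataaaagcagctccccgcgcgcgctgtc
Nqo1: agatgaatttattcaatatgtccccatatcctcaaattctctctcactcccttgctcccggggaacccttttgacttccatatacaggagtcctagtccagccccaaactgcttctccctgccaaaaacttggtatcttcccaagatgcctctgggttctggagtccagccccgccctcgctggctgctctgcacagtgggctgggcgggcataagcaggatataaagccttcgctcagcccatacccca

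With less Mi2β, 5 of the 38 tested genes rose and 5 fell. The 5 that rose were Cth, the glutathione transferases Gstt1, Mgst2 and Gsto1, and the peroxiredoxin Prdx1, and the 5 that fell were Nqo1, Gss, Glrx, Prdx2 and Txnrd2. These are 13.2% in each direction, beside 4.99% of all tested genes that rose and 4.56% that fell, or 9.56% either way. Cth entered the test only through its signal in the knockdown, and among the 36 genes detected on all 6 arrays, fitted with the other genes so detected, 4 rose and 5 fell. In that fit 1265 of all 18689 genes rose and 1478 fell, larger shares than in the main fit. A further 28 of the 38 did not pass the threshold. The median change of the 38 genes was -0.03, the same value as for all genes tested. At an unadjusted p under 0.05, 6 genes were higher and 8 lower. The 3 knockdown arrays lay wholly above the 3 control arrays for 7 genes, beside 12.7% of all genes, and wholly below for 11, beside 18.4%, and 31.1% of all genes lay apart either way.

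**Figure D1:**
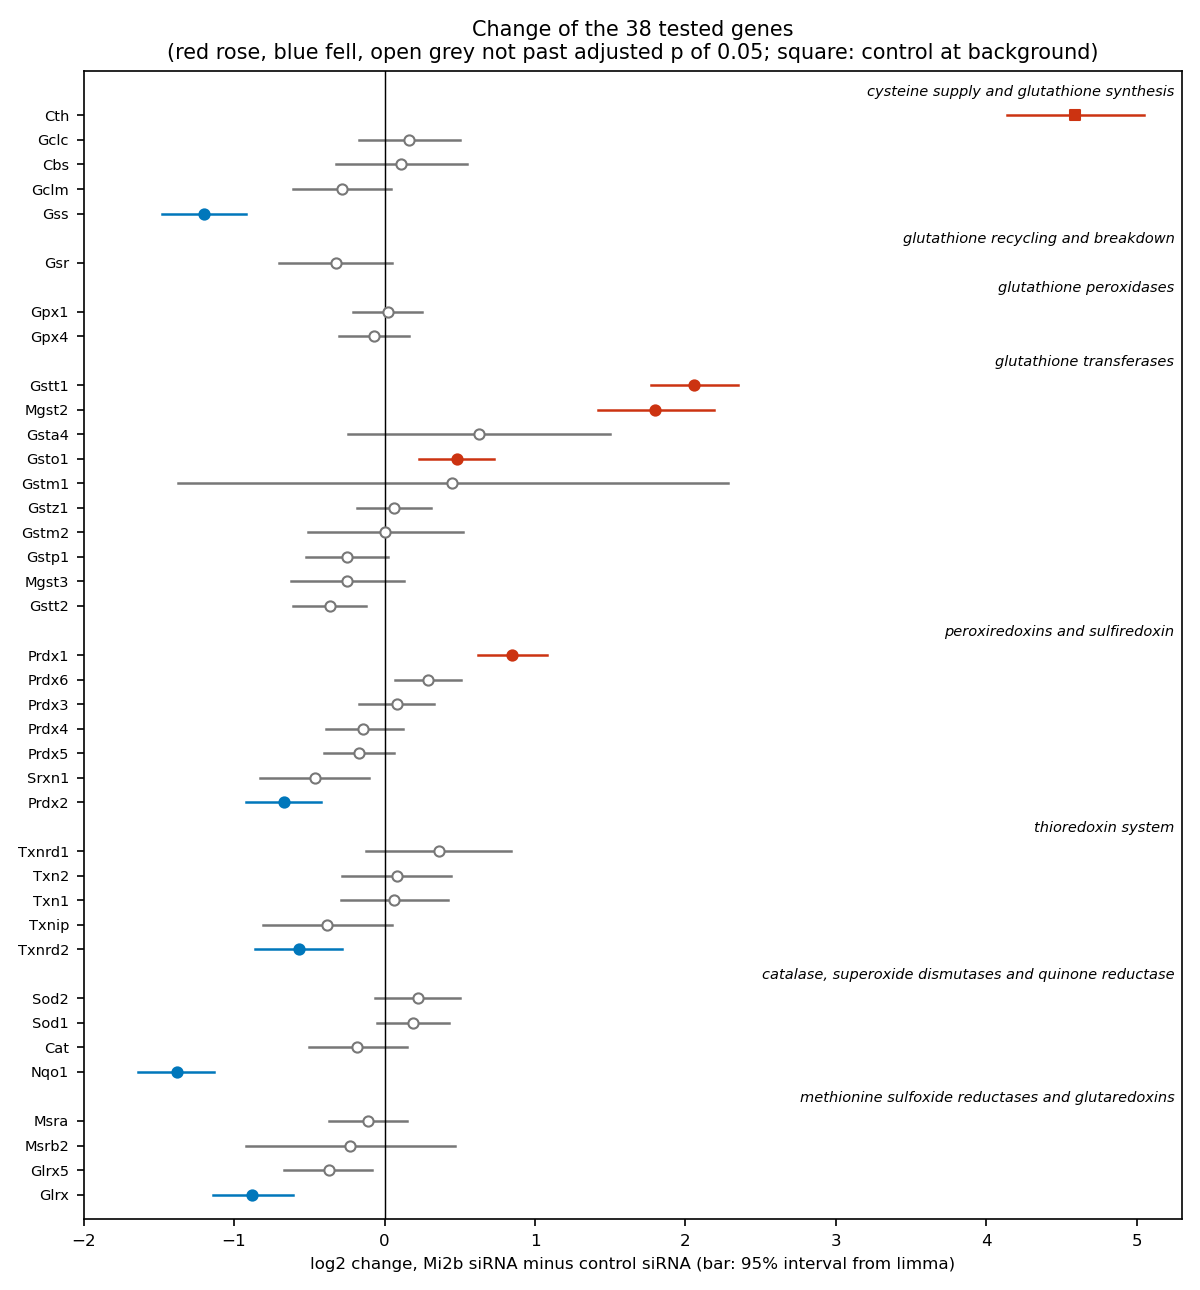
Change of the 38 tested genes by role, on the log2 scale, Mi2β siRNA minus control siRNA (n = 3 arrays per group), with the 95% interval from limma as a bar. Filled red points rose, filled blue points fell and open grey points did not pass an adjusted p of 0.05. The square marks Cth, whose control arrays were at background, so that its fitted change of 4.59 is not a measured ratio.

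In the supply of cysteine and the synthesis of glutathione, 1 of 5 genes rose and 1 fell, beside 4.99% and 4.56% of all genes. Cth encodes cystathionine gamma-lyase, which releases cysteine from cystathionine in the last step of transsulfuration. On the control arrays it read -6.81, -6.67 and -6.21, not well above background on any of them, and on the knockdown arrays it read -2.08, -1.78 and -2.05, well above background on all 3. The control level is only bounded, and Cth in the knockdown was 7.11-fold above a floor of detection. That floor of -4.80, set against the knockdown mean of -1.97, is a mean over the control arrays. Each array gave its dimmest signal called well above background, or the probe's own signal where higher. A higher floor would give a smaller fold. Cth passed the filter on detection only through the knockdown arrays, where it was high, so it had to differ once it was tested, and its fitted values (4.59, SE 0.19, adjusted p 0.000171) describe signals at background in the control. A second Cth probe was likewise at background on all control arrays. With normexp background correction, which lifts dim signals, the fitted change was 1.15 and the adjusted p 6.49e-05.

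Gss encodes glutathione synthetase, which adds glycine in the final step. It read 1.89, 2.10 and 1.85 in the control and 0.76, 0.64 and 0.84 in the knockdown, with every knockdown array below every control array. The change was -1.20 (SE 0.11, adjusted p 0.00281), or 2.3-fold lower. The enzymes of the step before it moved less. Gclc, the catalytic subunit of glutamate-cysteine ligase, went from 4.53 ± 0.20 to 4.69 ± 0.11 (SD, n = 3), a difference of 0.16 with a 95% interval of -0.17 to 0.50. Gclm, the modifier subunit, differed by -0.28 (-0.61 to 0.04), and neither passed the test.

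Cbs encodes cystathionine beta-synthase, the transsulfuration enzyme that acts just before Cth. Its level was -2.01 ± 0.06 in the control and -1.89 ± 0.33 in the knockdown, well above background on all arrays. The difference of 0.11 (95% interval -0.32 to 0.55) did not pass the test, so of the pair of transsulfuration enzymes only Cth was called higher. That the 2 changes differ was not tested.

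**Figure D2:**
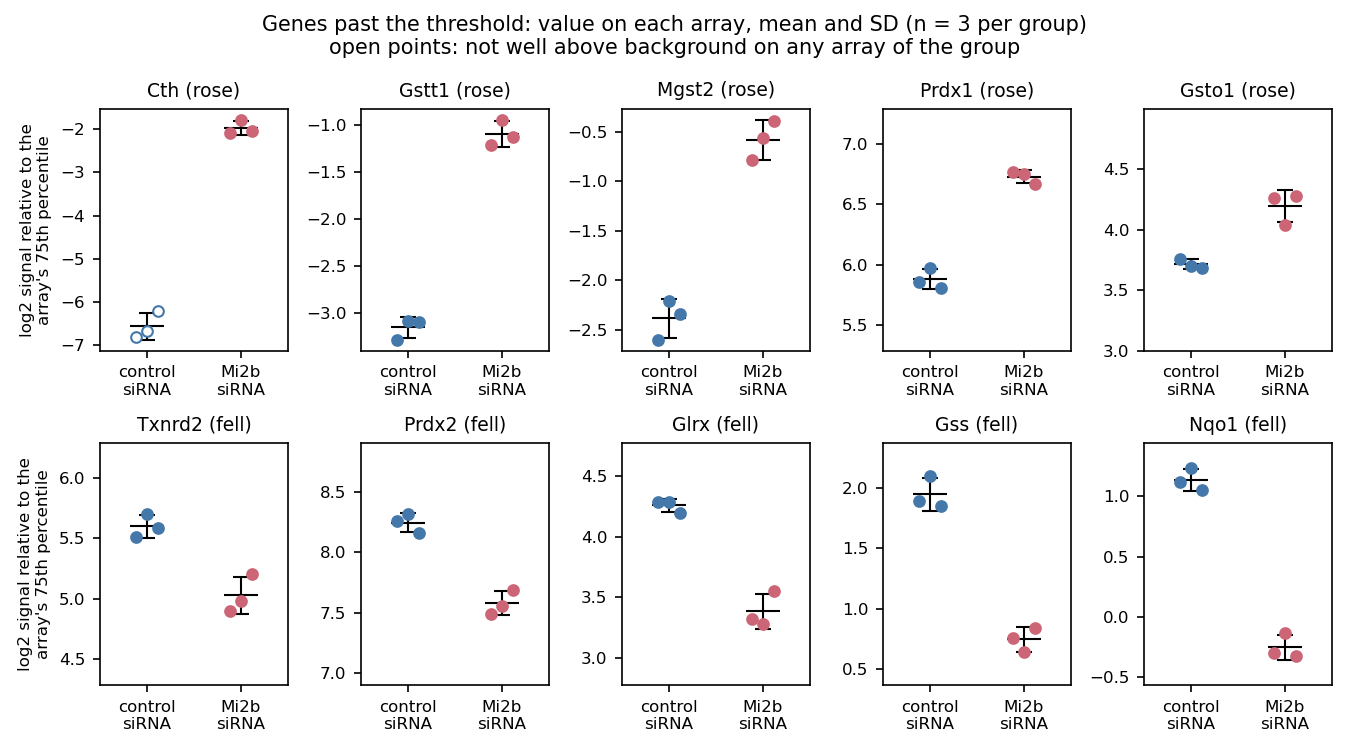
Level of each gene past the threshold on every array, as log2 signal relative to the array's 75th percentile, with the mean and SD (n = 3 per group) and a vertical axis of its own for each gene. In all 10 genes, picked for passing the threshold, the groups do not overlap, beside 31.1% of all genes tested. The open points of Cth mark control arrays at background, between -6.81 and -6.21.

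Glutathione is restored by glutathione reductase and broken down outside the cell by gamma-glutamyl transferase. Gsr, the reductase, read 4.11 ± 0.25 in the control and 3.79 ± 0.12 in the knockdown, and the difference of -0.32 (95% interval -0.70 to 0.05) did not pass the test. A second Gsr probe gave the same difference. Ggt1, the transferase, could not be tested with the detection filter, since it was well above background on 2 arrays only, both of the knockdown group. It read -7.03, -7.10 and -7.05 in the control and -4.83, -4.47 and -5.34 in the knockdown, so that the groups did not overlap in signals that were largely at background.

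Glutathione peroxidases, which reduce peroxides with glutathione, gave no call. Gpx1, the cytosolic enzyme that is abundant in red cells, read 9.20 ± 0.06 in the control and 9.22 ± 0.09 in the knockdown, with a 95% interval of -0.21 to 0.25 for the difference. Gpx4, which reduces lipid peroxides in membranes, differed by -0.07 (-0.30 to 0.16). Neither of the 2 passed an unadjusted p of 0.05. Gpx3, the secreted plasma enzyme, and Gpx7, of the endoplasmic reticulum, were not well above background on any array.

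Glutathione transferases join glutathione to reactive or foreign compounds. Of 12 on the list 10 were tested, and 3 rose, beside 4.99% of all genes tested. None fell (1 was lower at an unadjusted p under 0.05), beside 4.56% of all. Gstt1, of the theta class, read -3.28, -3.08 and -3.09 in the control and -1.21, -0.94 and -1.12 in the knockdown. All 3 knockdown arrays were far above all control arrays, a change of 2.06 (SE 0.12, adjusted p 0.000639), or 4.17-fold. Mgst2, a membrane-bound enzyme that can also make leukotriene C, read -2.60, -2.21 and -2.34 and then -0.79, -0.56 and -0.39. Its change was 1.80 (SE 0.16, adjusted p 0.0021), or 3.49-fold, again without overlap. With normexp background correction the changes were smaller, 1.23 for Gstt1 (adjusted p 4.12e-05) and 1.15 for Mgst2 (0.000142).

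Gsto1, of the omega class, read 3.76, 3.70 and 3.68 in the control and 4.26, 4.04 and 4.28 in the knockdown. The change was smaller, 0.48 (SE 0.10, adjusted p 0.0423), or 1.39-fold, with groups that did not overlap. It was near the threshold, and leaving out any of the 6 arrays ended the call: control 1 (adjusted p 0.115), control 2 (0.114), control 3 (0.0974), knockdown 1 (0.176), knockdown 2 (0.0521) or knockdown 3 (0.113).

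The neighbour of Gstt1 in the theta class, Gstt2, was lower in the knockdown, at 3.37, 3.50 and 3.54 against 3.06, 3.06 and 3.21. Its difference of -0.36 missed the threshold (adjusted p 0.0803), although the groups did not overlap. Whether Gstt1 and Gstt2 differ in their response was not tested. Gstp1, of the pi class, differed by -0.25 (95% interval -0.52 to 0.02), and its second probe, which also lists the near copy Gstp2, by -0.20. The membrane-bound Mgst3 differed by -0.25 (-0.62 to 0.13), and Gstz1, which works in tyrosine breakdown, by 0.06 (-0.18 to 0.31).

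Gsta4 and Gstm1 were the least precise of the transferases tested. Gsta4, which conjugates lipid aldehydes, differed by 0.63 with an SE of 0.36. Gstm1, of the mu class, read -4.69 and -4.31 on knockdown arrays 1 and 2 but -1.91 on knockdown array 3, and its difference of 0.45 had an SE of 0.74. The file places that Gstm1 probe on chromosome 5, while the probe of its family member Gstm2 lies on chromosome 3, and mu-class transcripts are similar enough that their signals may mix. Gstm2 differed by 0.00 (SE 0.21) on its brightest probe and by 0.47 on its second. Gstm5 and Mgst1 were not well above background on any array.

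Peroxiredoxins are abundant thiol peroxidases, and 1 of them rose while another fell, beside 4.99% and 4.56% of all genes tested. Prdx1, a cytosolic peroxiredoxin, read 5.86, 5.97 and 5.81 in the control and 6.77, 6.75 and 6.67 in the knockdown. The change was 0.85 (SE 0.09, adjusted p 0.00463), or 1.8-fold, with a wide gap between the groups, and a second probe gave 0.95. The brighter probe also lists predicted transcripts, and whether these add to its signal was not tested. Prdx2, the main peroxiredoxin of red cells, went the other way. It read 8.26, 8.32 and 8.16 in the control and 7.49, 7.56 and 7.69 in the knockdown, again without overlap.

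The change of Prdx2 was -0.67 (SE 0.10, adjusted p 0.0139), or 1.59-fold lower. Its adjusted p was above 0.05 without control 1 (0.0624), control 2 (0.0532), knockdown 1 (0.0791) or knockdown 2 (0.0539), and the change then lay between -0.62 and -0.66. Prdx6, which also acts on phospholipid peroxides, was higher in the knockdown, at 7.99, 8.01 and 7.93 against 8.18, 8.30 and 8.31. The difference of 0.29 did not pass the test (adjusted p 0.116). The other 3 probes of Prdx6 gave 0.65, 0.49 and 0.37, and the mean over its probes, 0.45, passed with an adjusted p of 0.0386. Srxn1, sulfiredoxin, which repairs over-oxidised peroxiredoxins, differed by -0.46 (adjusted p 0.125) without overlap between the groups. The mitochondrial Prdx3 differed by 0.08 (95% interval -0.17 to 0.33), Prdx4 of the endoplasmic reticulum by -0.14 (-0.39 to 0.12) and Prdx5 by -0.17 (-0.40 to 0.06).

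The thioredoxin system reduces peroxiredoxins and other proteins with electrons from NADPH. Of its 5 genes 1 fell, beside 4.56% of all genes tested. Txnrd2, the mitochondrial thioredoxin reductase, read 5.51, 5.70 and 5.58 in the control and 4.90, 4.98 and 5.20 in the knockdown. Knockdown array 3 was the closest to the control, but no array overlapped. The change was -0.57 (SE 0.12, adjusted p 0.0387), or 1.48-fold lower. The call was lost without control 1 (adjusted p 0.0962), control 2 (0.113), control 3 (0.0858), knockdown 1 (0.156) or knockdown 2 (0.113).

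The cytosolic reductase Txnrd1 was higher on average, at 4.76, 4.89 and 4.29 in the control and 5.21, 5.01 and 4.80 in the knockdown, with overlapping groups and a difference of 0.36 (SE 0.20, adjusted p 0.341). Its substrate Txn1, cytosolic thioredoxin, differed by 0.06 (95% interval -0.29 to 0.42) and the mitochondrial Txn2 by 0.08 (-0.28 to 0.44). Txnip, which binds and inhibits thioredoxin, differed by -0.38 (-0.81 to 0.05), and its second probe by -0.42.

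Among catalase, the superoxide dismutases and quinone reductase, only Nqo1 was called, with 3 others tested, beside 9.56% of all genes called either way. Nqo1 reduces quinones with NADPH. It read 1.12, 1.23 and 1.05 in the control and -0.30, -0.13 and -0.32 in the knockdown, the largest fall among the 38 genes. The change was -1.38 (SE 0.10, adjusted p 0.00141), or 2.61-fold lower. Sod1, the cytosolic superoxide dismutase, differed by 0.19 (95% interval -0.05 to 0.43), and its groups did not overlap. The mitochondrial Sod2 differed by 0.22 (-0.06 to 0.50), and Cat, catalase, by -0.18 (-0.50 to 0.15).

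Glutaredoxins reduce disulfides with glutathione, and methionine sulfoxide reductases repair oxidised methionine. Glrx, the cytosolic glutaredoxin, read 4.29, 4.29 and 4.20 in the control and 3.32, 3.28 and 3.55 in the knockdown, far apart on every array. The change was -0.88 (SE 0.11, adjusted p 0.00669), or 1.84-fold lower. Glrx5, the mitochondrial glutaredoxin that serves iron-sulfur clusters and so haem synthesis, read 8.80, 8.77 and 8.47 against 8.33, 8.25 and 8.33. Its difference of -0.37 did not pass the test (adjusted p 0.123), although the groups did not overlap. Msra differed by -0.11 (95% interval -0.37 to 0.15). Msrb2, well above background on 2 arrays of each group, differed by -0.23 (-0.92 to 0.47).

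The 10 calls differed in how often they held. Gss, Gstt1, Mgst2 and Nqo1 kept their call under each of the alternatives in processing and with each array left out, 18 in all. Cth kept it under the 17 that could test it, with its control arrays at background throughout. Where the filter on detection was used, Cth had passed it only through the knockdown arrays, so these fits give its call no support. Prdx1 and Glrx each lost their call under 2 of the 18, and Prdx2, Txnrd2 and Gsto1 under 8, 10 and 11. When each array was scaled by its median, which shifted the median change of all 22133 genes from -0.03 to -0.27 and that of the 38 genes to -0.26, the change of Prdx1 was 0.62 (adjusted p 0.559) and that of Glrx -1.11 (0.07). Prdx1 lost its call again in slide row 1 alone (adjusted p 0.0559). No called gene changed direction.

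**Figure D3:**
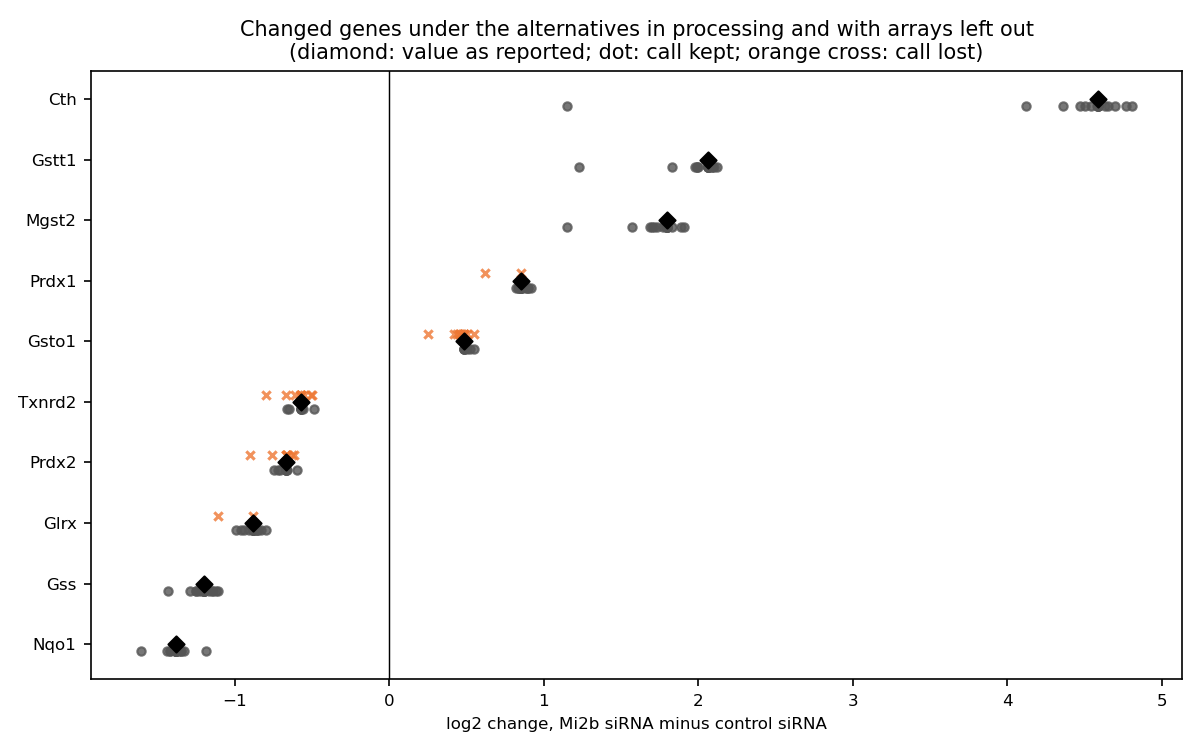
Log2 change of the 10 called genes, Mi2β siRNA minus control siRNA, as reported (diamond), under each alternative in processing and with each array left out (dots where the call held, orange crosses where it was lost). The dots for Cth, Gstt1 and Mgst2 at 1.15, 1.23 and 1.15 are those with normexp background correction.

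All 6 arrays lay on 1 slide. Slide row 1 held controls 1 and 2 and knockdowns 1 and 2, and row 2 held control 3 and knockdown 3. With the row as a block, Gsto1 (adjusted p 0.0744) and Txnrd2 (0.0583) lost their call and the other 8 genes kept theirs. In row 1 alone the calls of Gsto1 (0.189), Prdx1 (0.0559), Prdx2 (0.0619) and Txnrd2 (0.0936) were lost. Row 2, with 1 array per group, allows no test. Each slide column held arrays of only 1 group, so column and group cannot be told apart.

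Around these genes, 98 further genes of connected pathways were listed, of which 78 were tested, 7 rose and 4 fell. These are 8.97% and 5.13%, beside 4.99% and 4.56% of all genes, with a median change of -0.10. In the use of the products of glutathione, Oplah, which turns the oxoproline of glutathione breakdown back to glutamate, rose by 1.31 (SE 0.12, adjusted p 0.00235). It read -2.57, -2.69 and -2.78 in the control and -1.50, -1.40 and -1.21 in the knockdown, without overlap. Cndp2, a dipeptidase that can split cysteinylglycine, had a change of -0.50 (adjusted p 0.0358) and was called lower.

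In the methionine cycle, which feeds transsulfuration, 2 of 11 genes fell, beside 4.56% of all genes tested. None rose (1 was higher at an unadjusted p under 0.05), beside 4.99% of all. Mat2b, the regulatory subunit of methionine adenosyltransferase, had a change of -0.65 (adjusted p 0.0128). None of the 8 tested genes of cysteine and sulfide use and none of the 5 of serine supply was called, with 4 and 1 of them past an unadjusted p of 0.05. Slc7a11, the cystine carrier, and Chac1, which degrades glutathione in the cytosol, were well above background on at most 1 array and could not be tested.

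Among other thiol and superoxide enzymes, 4 of 10 rose and none fell, beside 4.99% and 4.56% of all genes. At an unadjusted p under 0.05, 4 of the 10 were higher and 2 lower. Nxn, nucleoredoxin, changed by 0.98 (adjusted p 0.00397), Txnrd3, the third thioredoxin reductase, by 0.95 (0.0392), Ccs, the copper chaperone of Sod1, by 0.45 (0.0371) and Park7, which protects against oxidative stress, by 0.39 (0.0467). Of 8 enzymes that supply NADPH, Nnt, the mitochondrial transhydrogenase, rose by 0.73 (0.0123) and Idh2, mitochondrial isocitrate dehydrogenase, by 0.62 (0.0356). At an unadjusted p under 0.05, 3 of the 8 were higher and 3 lower. Of 16 regulators and other NRF2 targets, Abcc4, an export pump, was the only one called, with a change of -0.81 (0.0229). The 9 further peroxidases and transferases tested gave no call, with 3 lower at an unadjusted p under 0.05.

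**Figure D4:**
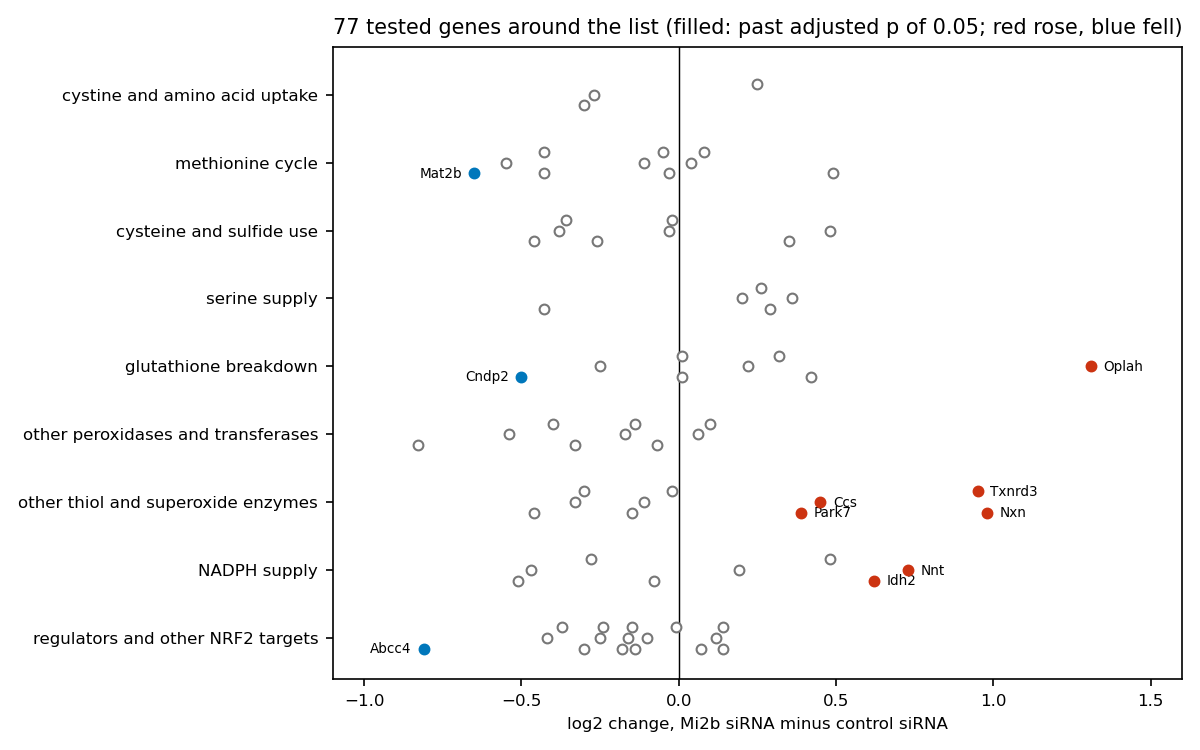
Log2 change, Mi2β siRNA minus control siRNA (n = 3 arrays per group), of 77 of the 78 tested genes of connected pathways, 1 point per gene in 9 rows by pathway. Named filled points passed an adjusted p of 0.05 (7 red, rose; 3 blue, fell), and Oplah at 1.31 lies farthest from 0.

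Oplah and Nxn kept their call with each array left out, and the other 8 genes named lost it without at least 1 array. Without control 1 the adjusted p was 0.0561 for Nnt, 0.124 for Idh2, 0.123 for Cndp2, 0.054 for Mat2b, 0.125 for Txnrd3, 0.125 for Ccs, 0.146 for Park7 and 0.0714 for Abcc4. Without control 2 it was 0.104 for Cndp2, 0.0677 for Ccs, 0.0904 for Park7 and 0.0721 for Abcc4. Without control 3 it was 0.0805 for Idh2, 0.0705 for Txnrd3, 0.0865 for Ccs, 0.0971 for Park7 and 0.0537 for Abcc4. These are losses of the call, since all changes kept their direction.

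The same was seen on the knockdown side. Without knockdown 1 the adjusted p was 0.0733 for Nnt, 0.146 for Idh2, 0.134 for Cndp2, 0.0768 for Mat2b, 0.15 for Txnrd3, 0.151 for Ccs and 0.18 for Park7. Without knockdown 2 it was 0.095 for Idh2, 0.109 for Cndp2, 0.0514 for Mat2b, 0.105 for Txnrd3, 0.0864 for Ccs, 0.105 for Park7 and 0.0699 for Abcc4. Without knockdown 3 it was 0.0892 for Idh2, 0.0807 for Cndp2, 0.0673 for Txnrd3, 0.105 for Ccs, 0.127 for Park7 and 0.0676 for Abcc4. In each of these fits fewer genes of the whole array were called as well.

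The arrays and the cells were checked once for these results. Signals clear of background made up 53.06% to 56.46% of probes on the control arrays, and 61.29%, 73.98% and 48.49% on knockdown arrays 1, 2 and 3, and no spot was saturated. Erythroid markers were well above background on every array, 10 of 10, with a mean level of 5.06 to 5.08 in the control and 5.29 to 5.51 in the knockdown, where Hbb-b1, Alas2 and Epb42 rose and Slc4a1 fell. Of 6 mast cell markers 4 were detected on all arrays, with a mean over the list of -3.06 to -2.50 in the control and -2.17 to -1.87 in the knockdown, and Mcpt4 rose while Fcer1a was at background throughout. Of 6 megakaryocyte markers 4 were detected on all arrays, with means of -1.23 to -0.81 in the control and -1.81 to -1.34 in the knockdown. Pf4, Gp9 and Gp1ba fell. Itga2b, the other of the 4, was higher by 1.51 (SE 0.35) and just missed the threshold (adjusted p 0.0508). Ppbp was at background. None of the 17 markers of granulocytes or monocytes, lymphocytes and fibroblasts was called. Of 8 granulocyte or monocyte markers 3 were detected on all arrays (Elane, Csf1r and S100a9), and of 5 lymphocyte markers 3 (Cd3e, Cd79a and Cd4). Of 4 fibroblast markers 2 were detected on all control arrays (Col1a2 and Col3a1) and 1 on all knockdown arrays (Col1a2). Mpo, Lyz2, Cebpa, S100a8, Col1a1 and Pdgfrb were at background on every array. In such bulk samples fewer cells of a type and less RNA per cell cannot be told apart, and the part of these marker shifts in the changes above was not tested.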

How the data were processed

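Per the file headers, the deposited intensities were read by Agilent Feature Extraction 10.7.3.1. They are linear, with the background subtracted and no normalization between arrays. The submitters' processing notes also name limma, with no version or settings. In the authors' value table, all values (100%) lay within 0.005 of these intensities.

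Of 62976 spots per array, the 3671 control spots and any flagged as outliers were dropped, the remaining spots were averaged by probe as log2, and each array's 75th percentile of log2 processed signal was subtracted. A probe had to be flagged well above background on 3 or more arrays, and the brightest such probe stood for its gene. Gene names were updated through RefSeq accessions of GRCm38.p6, of which 27509 of 29150 matched. limma 3.58.1 in R 4.3.3 (lmFit, eBayes, two-sided, no covariate) compared the groups, with Benjamini-Hochberg adjustment over 22133 genes. Precision is limited by 3 arrays per group. On simulated data with 200 changed genes the fit recovered 4.48%, 41.8% and 83.3% of those changed 1.5-, 2- and 4-fold. In the data 2115 genes were called, so the adjustment of p differs there and these shares need not hold for it.

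The genes, the list of connected pathways and the marker lists were chosen with earlier results of these data known. All 43 genes are accounted for, and those that passed the threshold, or were detected in 1 group only, are given on every array; of the connected genes, those that passed are named, except 1 that counts in the totals and is not reported here, with Slc7a11 and Chac1 added after their values were seen. Alternatives covered the scaling, background correction, detection filter, choice of probe, slide row, replicate number, variance model, the authors' value table and each array left out. Probe coordinates are those of the array's build, mm9, and no genome of it was used here.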

Additional observations from a re-analysis of the deposited data

How the results depend on the processing

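Of 38 tested genes, 5 of the 10 called kept their call under all alternatives that could test them, and 5 lost it under some. Cth is among the 5 that kept it, although it passed the filter on detection only through the knockdown arrays. A further 5 genes (Gstt2, Prdx6, Srxn1, Txnip and Glrx5) gained a call under some, and none of the 10 changed direction. Cth could not be tested where probes had to be well above background on all 6 arrays. The counts moved as follows, and the cause was not tested. Some settings used fewer arrays or tested other genes. With array median scaling 3 of the genes rose and 2 fell, of all genes 496 rose and 335 fell, and of the connected pathways 0 rose and 0 fell. With no detection filter 43 genes were tested, 5 rose and 3 fell. Of those that rose 4 were among the genes called above, and the other was not among the 38. Of all genes 661 then rose and 332 fell, and of the pathways 2 and 0. In slide row 1 alone 3 rose and 3 fell, with 494 and 226 of all genes and 1 and 0 of the pathways, and with the row as a block 4 of the pathways rose. An intensity trend gave 8 that fell, 1788 of all genes and 13 of the pathways. Array weights gave 8 that fell, with 2180 and 2549 of all genes and 12 and 16 of the pathways. With normexp 1670 of all genes and 12 of the pathways fell, with detection on all 6 arrays 8 of the pathways fell, and with the mean over probes 2. With 1 array left out, 4 to 4 of the genes rose and 3 to 5 fell, 3 without control 1, control 2, knockdown 1 or knockdown 2. Of all genes 557 to 898 then rose and 256 to 681 fell, and of the pathways 2 to 5 and 0 to 4.

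The labels do not say whether same-numbered samples form pairs. Same-numbered samples deviated from their group means with correlations of 0.206, -0.319 and 0.132. With 3 samples per group these values cannot decide whether the samples were paired. With the replicate block 2 of the genes fell, Gss and Nqo1, and of all genes 502 rose and 183 fell, with 2 and 0 of the pathways. Dim probes such as those of Cth, Gsta4, Gstm1 and Msrb2 are limited by signal over background.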
